A study of Mus musculus with 6 samples.

Results

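The genes described here are 10 markers of the synovial sublining fibroblast, namely Thy1, Cd34, Cd248, Ly6a, Ly6c1, Pi16, Dpp4, Clec3b, Gas6 and Mfap5. They were chosen by symbol, and all 10 of 10 were found among the 24348 genes of the count table and passed the count filter. RNA was sequenced from fibroblasts sorted from collagenase-digested synovium of adult wild-type C57BL/6 mice. One group (IC, 3 libraries) came from mice injected into a vein with immune complexes of ovalbumin and antibody to ovalbumin, and the other (vehicle, 3 libraries) from mice that received the vehicle alone. Neither group carried a transgene or deletion, the interval between injection and dissection was not given in the sources used here for these libraries, and the labels do not say that each library came from 1 mouse, so the p-values measure only the spread between these libraries. Total counts ranged from 40114331 to 56714304 per library.

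The synovium has a thin lining layer at the joint cavity, whose fibroblasts secrete lubricin (Prg4), over a looser sublining layer that holds vessels, nerves and most of the collagen. Sublining fibroblasts are recognised by the surface glycoprotein Thy1, and a subset around larger vessels, often called adventitial or progenitor-like, carries Cd34, Pi16, Dpp4 and Ly6a. Clec3b, Gas6 and Mfap5 encode secreted proteins of the same cells.

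All of these markers were abundant in the sorted fibroblasts, and none was called as changed after IC. Thy1, Cd34, Cd248, Clec3b and Gas6 had lower means after IC, at 0.818 to 0.880 times those of vehicle. Pi16, Dpp4 and Mfap5 had nearly equal means, and Ly6a and Ly6c1 had higher ones, at 1.508 and 1.230 times. Genes were called by the Wald test of DESeq2 at a Benjamini-Hochberg adjusted p under 0.05 in a fit of all 19925 genes. DESeq2 gave no adjusted p to 3870 of these, which were counted as not called. In that fit 0 of 10 markers passed against 2.10% of the 19925 genes. The quasi-likelihood test of edgeR also called 0 of 10, with 0.186% of all genes called, and limma-voom called 0 of 10, with 0.311% of all genes called. At an unadjusted p under 0.05, DESeq2 held 5 of the 10 markers, against 9.80% of all genes and 20.9% of genes with a mean of at least 5000 normalized counts, the range in which all 10 markers lay. edgeR and limma-voom held 4 each at that level, against 9.64% and 10.3% of all genes. Their shares over genes with a mean of at least 5000 normalized counts were not computed. The median log2 fold change of the 10 markers was -0.09, beside -0.002 over all genes tested. In bulk RNA, fewer cells of a type and less RNA per cell cannot be told apart.

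**Figure D1:**
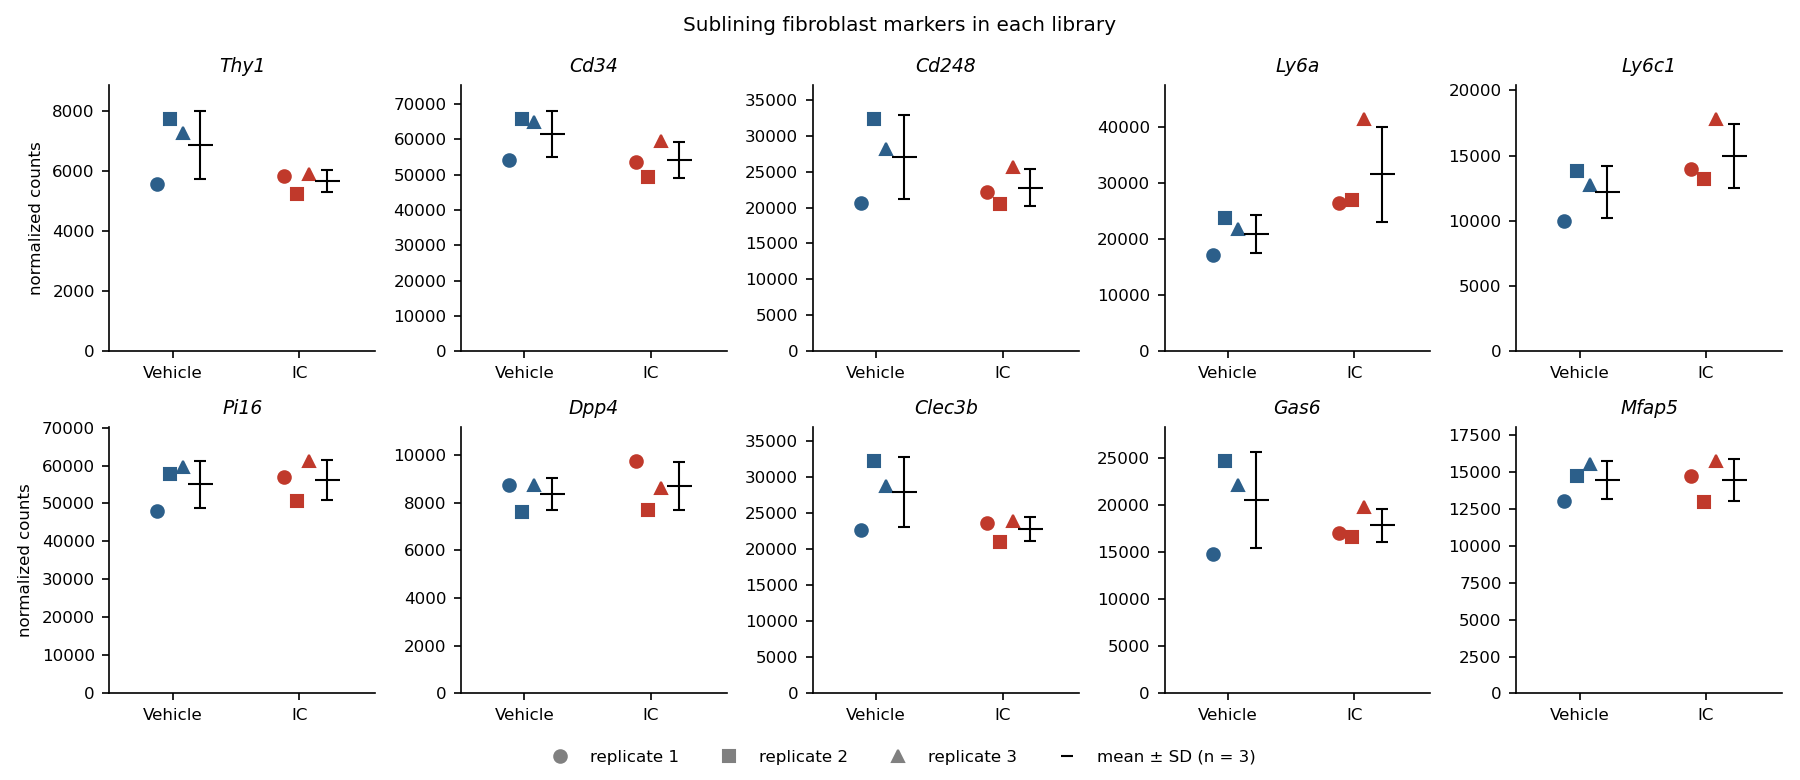
Normalized counts (vertical axes from 0) of the 10 markers in each vehicle (blue) and IC (red) library, with the marker shape giving the replicate and black bars the mean ± SD of 3 libraries. Ly6a is the one gene whose groups do not overlap, and vehicle replicate 1 lies below the other vehicle libraries for every gene but Dpp4.

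The levels below are counts divided by the DESeq2 size factor of the library. By mean level over the 6 libraries, Cd34 and Pi16 ranked 57th and 58th of 24348 genes, and the lowest marker, Thy1, ranked 1382nd. Per kilobase of exon, which allows genes to be compared, Clec3b was the most abundant in vehicle libraries, at 28077 ± 4878 normalized counts per kilobase (SD, n = 3), followed by Ly6a at 17353 ± 2800. These did not overlap, and both lay above the next gene, Cd248, in every vehicle library. Cd248 (10370 ± 2255), Pi16 (8659 ± 973.3), Cd34 (8444 ± 894.3), Gas6 (8047 ± 1999) and Ly6c1 (7265 ± 1191) overlapped with one another in normalized counts per kilobase. Mfap5 followed at 4019 ± 359.4, Thy1 at 2291 ± 379.1 and Dpp4 at 1323 ± 104.8 normalized counts per kilobase, and these 3 did not overlap with each other or with the genes above them. After IC the 2 leading genes exchanged places, with Ly6a at 26175 ± 7027 and Clec3b at 22962 ± 1626 normalized counts per kilobase, but their ranges overlapped. In the order by the mean of all 6 libraries, dividing by the longest transcript, in place of all exons of a gene, kept 4 of the 10 places, with Cd34, Pi16 and Ly6c1 then above Cd248 and Ly6a above Clec3b. Prg4, the lining marker, was also present in the sorted cells, at 2533 ± 659.2 normalized counts per kilobase in vehicle libraries and 4852 ± 698.3 in IC libraries.

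**Figure D2:**
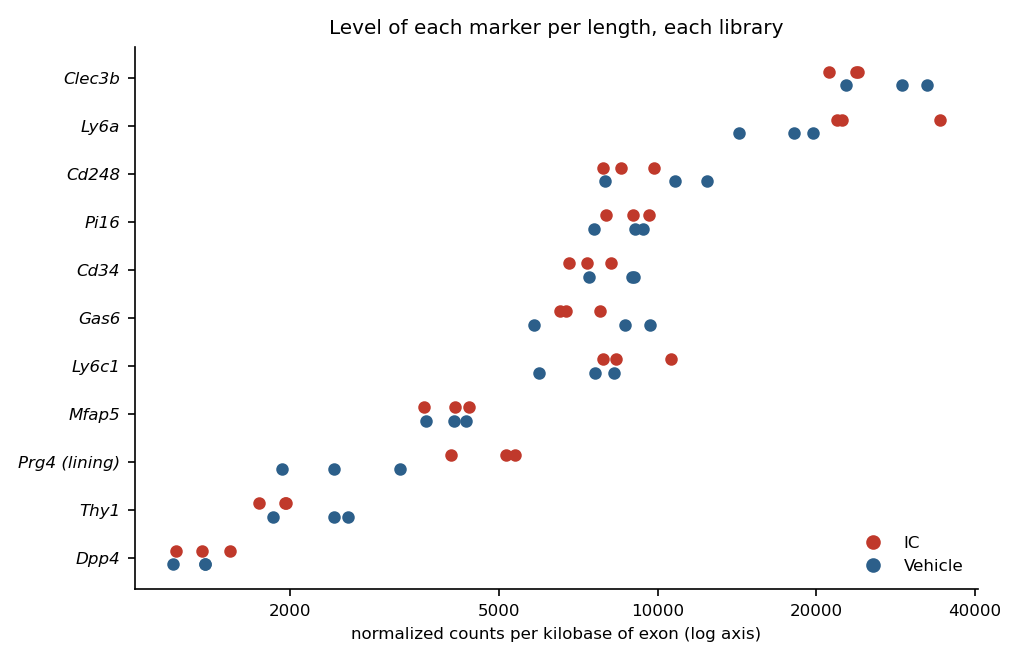
Normalized counts per kilobase of exon (log axis) of the 10 markers and of Prg4 in each library, vehicle in blue and IC in red, ordered by the vehicle mean. Clec3b and Ly6a stand above the rest, 5 genes share the middle range, and Ly6a and Prg4 are the genes whose IC points all lie to the right of the vehicle points.

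The surface glycoproteins came first. Thy1 (chr9:44043384-44048579, plus strand, GRCm38), a GPI-anchored protein that separates sublining from lining fibroblasts, was at 5858, 5242 and 5901 normalized counts in IC replicates 1, 2 and 3. In vehicle replicates 1, 2 and 3 it was at 5577, 7729 and 7283. The IC libraries lay close together and below vehicle replicates 2 and 3, whereas vehicle replicate 1 fell inside their range. The log2 fold change was -0.28 ± 0.12 (SE; 95% interval -0.50 to -0.05), with a DESeq2 adjusted p of 0.246. T cells also carry Thy1. The T-cell list, with only 4 of its 8 genes in the table, summed to 1.93 to 2.20 CPM (counts scaled to a fixed library total) in IC libraries. In vehicle libraries it summed to 1.02 to 2.66 CPM. Cd3e was not among the genes of the table, and the part of T-cell RNA in the Thy1 values was not tested.

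Cd34 (chr1:194938819-194961279, plus strand), a sialomucin of adventitial fibroblasts that endothelial cells also carry, was at 53505, 49408 and 59509 normalized counts in the IC libraries. The vehicle values were 54035, 65646 and 64980, so the groups overlapped only through vehicle replicate 1. The fold change was 0.880 (95% interval 0.774 to 1.0), with a DESeq2 adjusted p of 0.437. The endothelial gene Pecam1 was at 1250, 1339 and 725.8 normalized counts in IC and 1685, 1144 and 1562 in vehicle libraries, and the summed endothelial list was at 226 to 311 CPM in IC and 306 to 369 in vehicle libraries. The part of endothelial RNA in the Cd34 values was not tested. The 2 sialomucins related to Cd34, Podxl and Emcn, also had lower means after IC (log2 fold changes of -0.57 and -0.80), with DESeq2 adjusted p of 0.0766 and 0.0924. Exons of Cd34 overlap those of Gm16897 on the opposite strand over 148 bases, and the use of strand in counting is not given in the sources used here.

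Cd248 (chr19:5068078-5070682, plus strand), or endosialin, is a C-type lectin-like receptor of perivascular and sublining stroma. It was at 22218, 20471 and 25643 normalized counts in IC libraries and 20669, 32261 and 28114 in vehicle libraries. The vehicle libraries spanned 1.561-fold from lowest to highest, more than the difference between the groups, which was 0.843-fold (95% interval 0.708 to 1.004; DESeq2 adjusted p of 0.462). The other members of its lectin family had lower means as well, Thbd by a log2 fold change of -0.29 and Cd93 by -0.36. The list of 5 genes also held Mmrn2, which is not a lectin of this family, and 0 of the 5 were called.

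Among the secreted proteins, Clec3b (chr9:123150946-123157432, plus strand), or tetranectin, which binds plasminogen, had the smallest DESeq2 p of the 10 markers (unadjusted p of 0.0086). It was at 23596, 20920 and 23819 normalized counts in IC libraries and 22611, 32150 and 28797 in vehicle libraries. As for Thy1, the IC libraries were tightly grouped below vehicle replicates 2 and 3, and vehicle replicate 1 lay among them. The log2 fold change was -0.29 ± 0.11 (SE; 95% interval -0.51 to -0.07), with a DESeq2 adjusted p of 0.172.

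Gas6 (chr8:13465374-13494490, minus strand) encodes a vitamin K-dependent ligand of the receptor kinases Axl, Mertk and Tyro3. It was at 17068, 16628 and 19778 normalized counts in IC libraries. The vehicle values of 14812, 24631 and 22065 held both the lowest and the highest of the 6, a 1.663-fold spread that was the widest of any marker within vehicle. The log2 fold change was -0.20 ± 0.22 (SE), with an interval from -0.64 to 0.23 and a DESeq2 adjusted p of 0.865. Its receptors had small differences, with log2 fold changes of 0.07 for Axl, 0.15 for Mertk and 0.16 for Tyro3, and 0 of the 7 tested genes of the Gas6 pathway were called (median 0.07). Axl, the most abundant of these receptors by count, was at 57536, 54485 and 56820 normalized counts in IC and 49033, 56889 and 54506 in vehicle libraries. Ggcx, the carboxylase that modifies Gas6, had a log2 fold change of 0.30 with no overlap between groups and a DESeq2 adjusted p of 0.0708.

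Mfap5 (chr6:122505845-122529290, plus strand), a glycoprotein of elastic microfibrils, had the smallest difference of the 10. It was at 14759, 12933 and 15720 normalized counts in IC libraries and 13010, 14732 and 15534 in vehicle libraries. The fold change was 1.003, with a 95% interval from 0.882 to 1.141 and a DESeq2 adjusted p of 0.998. Of its microfibril partners, Fbn1, the fibrillin that forms the core of the microfibril, differed by a log2 fold change of 0.03. Mfap2, the closest relative of Mfap5, fell by 0.37 on the log2 scale, from 1634, 1684 and 1683 normalized counts in vehicle to 1309, 1196 and 1376 in IC libraries (DESeq2 adjusted p of 0.0446; edgeR adjusted p of 0.151). It was the 1 called gene of the 9 on that list.

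Pi16 and Dpp4 had nearly equal means in both groups. Pi16 (chr17:29317680-29330593, plus strand), a peptidase inhibitor that marks adventitial fibroblasts across tissues, was at 56992, 50700 and 61105 normalized counts in IC libraries and 48039, 57682 and 59595 in vehicle libraries. Its fold change was 1.021 (95% interval 0.896 to 1.163; DESeq2 adjusted p of 0.972). Dpp4 (chr2:62330073-62412231, minus strand), a surface protease that trims chemokines and other peptides, was at 9727, 7703 and 8628 normalized counts in IC libraries and 8738, 7595 and 8747 in vehicle libraries. Its fold change was 1.039 (95% interval 0.907 to 1.190; DESeq2 adjusted p of 0.936). Dpp4 was the one marker for which vehicle replicate 1 was not below both of the other vehicle libraries. Its related proteases showed like values, with log2 fold changes of 0.02 for Dpp8 and 0.11 for Dpp9, and Fap, a fibroblast protease of the same family, had one of -0.21 (DESeq2 adjusted p of 0.142). Among 7 tested genes of that family, 0 were called.

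Ly6a and Ly6c1 belong to the Ly6 family of small GPI-anchored proteins, a set of neighbouring, similar genes on mouse chromosome 15. Ly6a (chr15:74994877-74998031, minus strand), also called Sca-1, marks mesenchymal and haematopoietic progenitors and is known to be induced by interferons. It was at 26390, 26920 and 41313 normalized counts in IC libraries and 17171, 23728 and 21832 in vehicle libraries. Every IC library lay above every vehicle library, and Ly6a was the 1 marker of 10 without overlap, against 15.8% of all genes without overlap in either direction and 8.09% in the direction of higher after IC. IC replicate 3 was 1.55 times the mean of the other IC libraries. The log2 fold change was 0.59 ± 0.26 (SE; 95% interval 0.08 to 1.10), with adjusted p of 0.297 by DESeq2, 0.219 by edgeR and 0.181 by limma-voom. Without IC replicate 3 the log2 fold change was 0.35 (DESeq2 adjusted p of 0.134), and with each of the other libraries left out in turn it lay between 0.47 and 0.71.

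Ly6c1 (chr15:75044018-75048830, minus strand), known as a surface antigen of endothelial cells and of some fibroblasts, was at 13953, 13220 and 17772 normalized counts in IC libraries and 9968, 13847 and 12738 in vehicle libraries. It was again highest in IC replicate 3 and lowest in vehicle replicate 1, and the groups overlapped. The log2 fold change was 0.30 ± 0.13 (SE; 95% interval 0.05 to 0.54), with a DESeq2 adjusted p of 0.25. Leaving out IC replicate 3 gave 0.16, and leaving out vehicle replicate 1 gave 0.17. Of the Ly6 family, 10 of 16 listed genes were in the table, 0 were called, and the median log2 fold change was 0.16. Ly6e, a widely expressed member, was at 5489, 4311 and 9018 normalized counts in IC libraries and 3682, 5281 and 4551 in vehicle libraries, with the same high value in IC replicate 3.

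Reads of Ly6c1 can be hard to place, since the coding sequences of Ly6c1 and Ly6c2 are 97.73% identical (387 of 396 bases) and 32.766% of the 50-base stretches of Ly6c1 transcripts also occur in another gene, mainly Ly6c2. For Ly6a that share was 18.967%, and its coding sequence was 82.51% identical to that of Ly6c1. The first 120 coding bases of both Ly6c genes (GENCODE M21, GRCm38) are shown because they hold 6 of the 9 differences, marked in capitals, between a gene that was abundant here and a near copy with few counts.
Ly6c1: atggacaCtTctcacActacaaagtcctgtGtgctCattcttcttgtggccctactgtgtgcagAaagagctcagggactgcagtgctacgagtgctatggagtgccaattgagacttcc
Ly6c2: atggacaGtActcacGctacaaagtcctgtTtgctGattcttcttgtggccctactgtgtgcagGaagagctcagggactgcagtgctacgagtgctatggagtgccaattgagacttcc
Ly6c2, a marker of inflammatory monocytes, was at 29.75, 83.72 and 56.45 normalized counts in IC and 24.6, 42.51 and 42.56 in vehicle libraries. The longest run of identical bases between both coding sequences was 188, so a read wholly within that stretch cannot by itself be assigned to one of them. By the study's methods, reads were paired and longer than 50 bases, so the other end of a fragment may still place it. The shares given for 50-base stretches are therefore not shares of reads that cannot be placed. How the authors treated reads that fit both genes is not given in the sources used here.

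The high values of Ly6a and Ly6c1 in IC replicate 3 stood beside those of interferon-stimulated genes. The geometric mean of 12 such genes was 1074, 840.7 and 2391 normalized counts in IC replicates 1, 2 and 3 and 680.3, 947.2 and 764.8 in vehicle replicates 1, 2 and 3. All 12 had a positive log2 fold change (median 0.85), and 1 was called. That gene was Stat2, a transducer of interferon signals, which rose by 0.53 on the log2 scale (DESeq2 adjusted p of 0.00197; edgeR adjusted p of 0.137). Whether interferon signalling had a part in the Ly6a and Ly6c1 values was not tested.

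Promoter windows from RefSeq (GRCm38.p6), from 250 bases before to 50 bases after a transcription start, were held for 5 of the 10 markers, namely Cd34, Pi16, Dpp4, Gas6 and Ly6c1. They were searched on both strands for 3 motifs, of which the interferon-stimulated response element (ISRE, GAAANN followed by GAAA) occurred in 3.44% of all 32851 windows, the AP-1 site (TGANTCA) in 7.81% and the GC box (GGGCGG) in 35.7%. The motifs do not overlap one another in these windows. Dpp4, with nearly equal means, held an ISRE match 52 bases before the start on the reverse strand, whereas neither Ly6c1 window held a match to any of the 3. The Gas6 window held 4 GC boxes on the reverse strand, between 66 and 8 bases before the start, and the Cd34 and Pi16 windows held none of the motifs. The Dpp4 window and the more upstream Ly6c1 window are shown for this contrast, written 5′ to 3′ on the strand of the gene, with the ISRE match in capitals.
Dpp4 (chr2:62412182-62412481, minus strand): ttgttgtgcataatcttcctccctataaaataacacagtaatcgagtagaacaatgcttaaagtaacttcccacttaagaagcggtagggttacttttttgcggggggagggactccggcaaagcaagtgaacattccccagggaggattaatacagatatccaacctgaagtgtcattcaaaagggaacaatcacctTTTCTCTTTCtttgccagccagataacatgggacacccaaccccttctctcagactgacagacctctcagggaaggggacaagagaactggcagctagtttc
Ly6c1 (chr15:75048788-75049087, minus strand): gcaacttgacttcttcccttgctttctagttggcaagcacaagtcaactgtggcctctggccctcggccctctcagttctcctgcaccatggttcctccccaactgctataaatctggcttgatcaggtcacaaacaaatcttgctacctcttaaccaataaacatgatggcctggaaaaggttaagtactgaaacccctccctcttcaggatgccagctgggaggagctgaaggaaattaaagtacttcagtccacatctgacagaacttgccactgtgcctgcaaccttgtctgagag
A match describes these letters only.

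How several markers compared between groups depended on which vehicle library was left out. Vehicle replicate 1 lay below vehicle replicates 2 and 3 in 9 of the 10 markers, as it did in 54.0% of all genes with a mean of at least 5000 normalized counts. Its level was 0.634 times the mean of the other vehicle libraries for Gas6, 0.685 times for Cd248, 0.742 times for Clec3b and 0.743 times for Thy1, but 0.860 times for Mfap5 and 1.069 times for Dpp4. The same library had 0.964% of its counts on Gm42418, a gene that overlaps ribosomal RNA, against 0.375% to 0.553% in the other 5 libraries, and the part of this in the marker values was not tested. Without vehicle replicate 1, DESeq2 called 5 of the 10 markers lower after IC, against 1.72% of all genes and 7.28% of genes with a mean of at least 5000 normalized counts. The 5 were Clec3b (log2 fold change -0.42 ± 0.09 SE, adjusted p of 0.000151), Thy1 (-0.41 ± 0.09, adjusted p of 0.000437), Gas6 (-0.39 ± 0.09, adjusted p of 0.0029), Cd248 (-0.41 ± 0.10, adjusted p of 0.00576) and Cd34 (-0.27 ± 0.09, adjusted p of 0.0445). Of all 10 markers, 5 had their 3 IC libraries below vehicle replicates 2 and 3, the same 5 as were called, and the share was 15.2% over all genes and 23.0% over genes with a mean of at least 5000 normalized counts. This count and the calls rest on the same libraries, so neither is separate support for the other. Leaving out any other library gave 0 of 10 markers called. Without vehicle replicate 2 the same 5 log2 fold changes shrank to between -0.18 (Thy1) and -0.05 (Gas6). Which vehicle library was unlike the others was not tested.

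**Figure D3:**
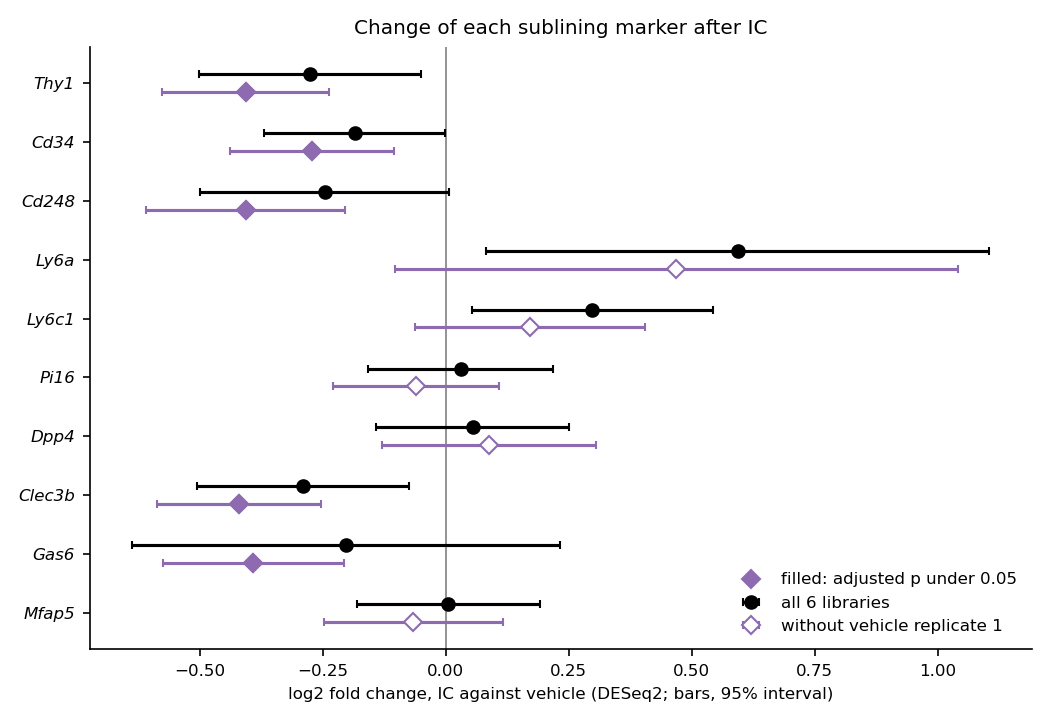
Log2 fold change of each marker, IC against vehicle (horizontal axis), with 95% intervals, from all 6 libraries (black circles) and without vehicle replicate 1 (purple diamonds, filled where the DESeq2 adjusted p is under 0.05). Without that library Thy1, Cd34, Cd248, Clec3b and Gas6 are called lower, the intervals of Ly6a and Ly6c1 reach below 0, and Pi16, Dpp4 and Mfap5 stay near 0.

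Ratios of 2 markers within 1 library do not depend on how libraries are scaled. They were computed after the values had been seen, for all 45 pairs of markers. The sets of markers named below were also formed from their changes in these libraries. Counts of pairs by set therefore follow in part from that choice and are descriptions only. In 22 of 45 pairs (48.9%) the IC ratios did not overlap with the vehicle ratios, against 27.0% of the 1691880 pairs of genes with a mean of at least 5000 normalized counts. The pairs share genes and libraries and are not independent, and with 3 libraries against 3 no single ratio can reach p under 0.10 in an exact two-sided permutation test, so none was tested. Leaving out one library at a time gave between 22 and 24 pairs without overlap, except for 34 of 45 without vehicle replicate 1. The share over all gene pairs was not computed with a library left out. Fewer libraries separate more readily, so these counts cannot be set against the 27.0%.

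Relative to the other markers in the same library, Ly6a and Ly6c1 were higher on average after IC, though their ratios to Dpp4 overlapped between groups. The ratio of Thy1 to Ly6a was 0.325, 0.326 and 0.334 in vehicle replicates 1, 2 and 3, and 0.222, 0.195 and 0.143 in IC replicates 1, 2 and 3. The vehicle libraries thus differed by 1.027-fold in this ratio, although they differed by 1.386-fold in Thy1 itself. The ratio of Ly6c1 to Clec3b was likewise steady in vehicle, at 0.441, 0.431 and 0.442, and higher in IC, at 0.591, 0.632 and 0.746. All 10 pairs of Ly6a or Ly6c1 with Thy1, Cd34, Cd248, Clec3b or Gas6 separated the groups, as did all 4 pairs with Pi16 or Mfap5. The share over all pairs of genes with a mean of at least 5000 normalized counts was 27.0%, but those pairs were not sorted by change. Within the Ly6 family, the ratio of Ly6a to Ly6c1 was 1.72, 1.71 and 1.71 in vehicle and 1.89, 2.04 and 2.32 in IC libraries, although both genes share part of their sequence.

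Pi16 and Mfap5 had overlapping ratios to each other, but not to Thy1 and Cd34. The ratio of Pi16 to Mfap5 was 3.69, 3.92 and 3.84 in vehicle and 3.86, 3.92 and 3.89 in IC libraries. The ratio of Cd34 to Pi16, the most abundant markers by count, was 1.12, 1.14 and 1.09 in vehicle libraries and 0.939, 0.975 and 0.974 in IC libraries, so Cd34 was above Pi16 in every vehicle library and below it in every IC library. The ratio of Thy1 to Pi16 was 0.116, 0.134 and 0.122 in vehicle and 0.103, 0.103 and 0.0966 in IC libraries. Of the 10 pairs that join Pi16 or Mfap5 to Thy1, Cd34, Cd248, Clec3b or Gas6, 7 separated the groups.

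Among Thy1, Cd34, Cd248, Clec3b and Gas6, 0 of the 10 pairs separated the groups. The ratio of Thy1 to Clec3b was 0.247, 0.240 and 0.253 in vehicle and 0.248, 0.251 and 0.248 in IC libraries. Dpp4 separated the groups in 0 of its 9 pairs, and its ratios varied most within vehicle, by up to 1.913-fold against Gas6.

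**Figure D4:**
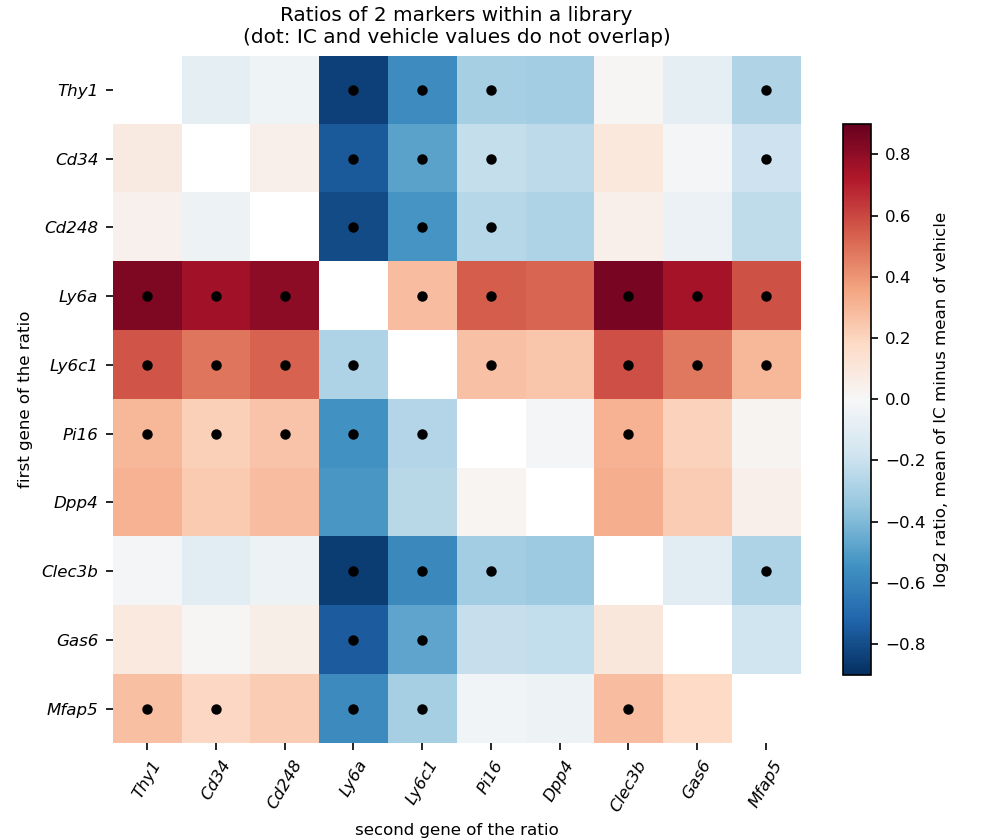
Difference in the log2 ratio of 2 markers (row gene over column gene) between the means of the IC and vehicle libraries, red where the ratio was higher after IC, with a dot where the 3 IC and 3 vehicle ratios do not overlap. The Ly6a and Ly6c1 rows are red throughout against the other 8 genes, and 22 of the 45 pairs carry a dot.

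Other fibroblast genes were counted in the same fit. Of 14 other adventitial genes, 1 was called, Efhd1, which fell by 0.42 on the log2 scale (DESeq2 adjusted p of 0.0262), and the list median was -0.05. Of 13 other sublining genes, Smoc2 fell by 0.40 (adjusted p of 0.0136), the basement membrane collagen Col15a1 fell by 0.31 (adjusted p of 0.0283) and the leptin receptor Lepr rose by 0.29 (adjusted p of 0.0496) on the log2 scale by DESeq2, with a list median of -0.11. Cxcl12, a chemokine of the sublining, was at -0.31 on the log2 scale (DESeq2 adjusted p of 0.0929). Among 10 general fibroblast genes, Lum fell by 0.36 (adjusted p of 0.0025) and Col3a1 fell by 0.38 (adjusted p of 0.00679) on the log2 scale by DESeq2, whereas Pdgfra (-0.16), Col1a1 (-0.12) and Pdpn (0.07) were not called. edgeR called 0 genes of these 3 lists. Without vehicle replicate 1, where 5 of the 10 markers were called lower, genes of these lists were called lower as well. They were 4 of the 10 general fibroblast genes (Col3a1, Lum, Col1a2 and Col1a1), 4 of the 13 other sublining genes (Cxcl12, Col15a1, Dpt and Sfrp1) and 2 of the 14 other adventitial genes (Efhd1 and Dact2), with 0 called higher in any of the 3 lists. In that fit Cxcl12 was at -0.42 on the log2 scale (DESeq2 adjusted p of 0.000273), Col1a1 at -0.23 (adjusted p of 0.00827) and Col3a1 at -0.49 (adjusted p of 4.4e-10).

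Of the 8 lining genes, 1 was called higher, 2 were called lower and 5 were not called. Prg4 rose by 0.94 on the log2 scale (DESeq2 adjusted p of 0.0103; edgeR adjusted p of 0.0541), from 8263, 13855 and 10408 normalized counts in vehicle to 17352, 22054 and 22899 in IC libraries. Clic5 fell by 0.68 (adjusted p of 0.000825) and Tspan15 fell by 0.90 (adjusted p of 0.00835) on the log2 scale by DESeq2, and the list median was -0.04. Without vehicle replicate 1, DESeq2 called 3 of the 8 lining genes lower (Clic5, Tspan15 and Htra4) and 1 higher (Prg4). Calls lower in that fit were thus not limited to the sublining and general fibroblast genes. The ratio of Thy1 to Prg4 counts was 0.675, 0.558 and 0.700 in vehicle libraries and 0.338, 0.238 and 0.258 in IC libraries, without overlap.

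**Figure D5:**
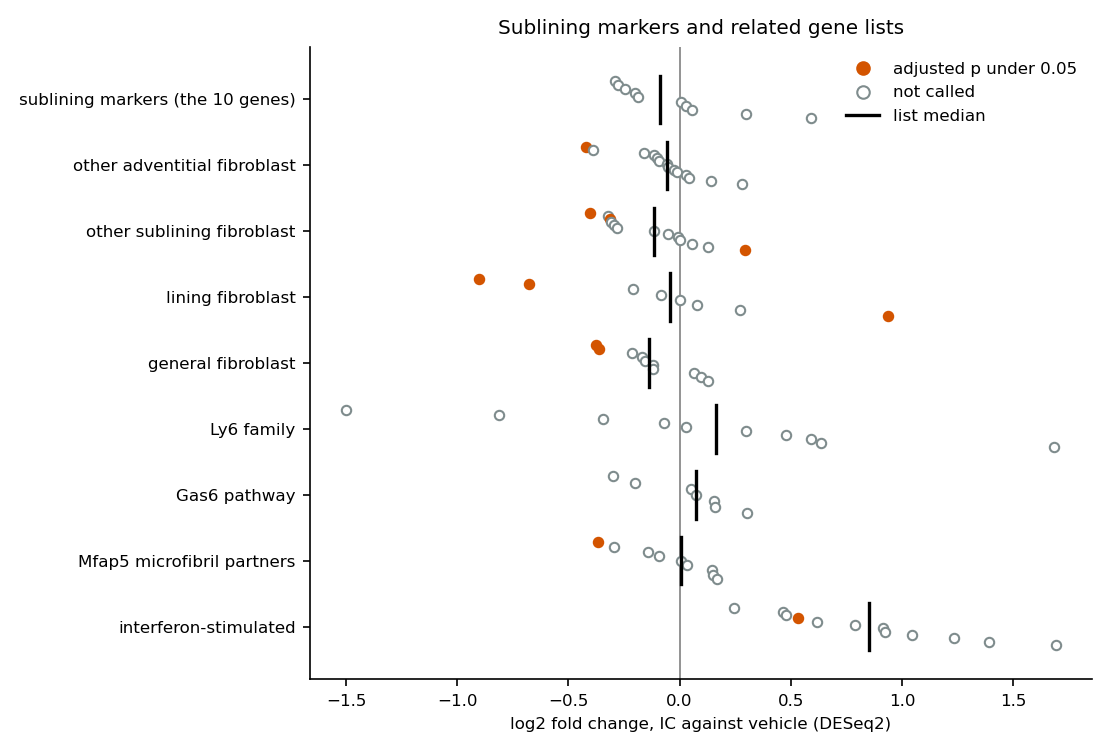
Log2 fold change, IC against vehicle, of each tested gene of the 10 sublining markers and of 8 related lists, filled orange where the DESeq2 adjusted p is under 0.05, with a black line at each list median. The sublining markers have a median of -0.09 and no filled point, and the 12 interferon-stimulated genes all lie right of 0.

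Genes of other cell types partly moved with the groups. The summed mural-cell list was at 496 to 598 CPM in IC and 582 to 628 in vehicle libraries, with 1 of 8 genes called lower (Myh11), and 3 of 12 endothelial genes were called lower (Kdr, Cdh5 and Cldn5). The Schwann-cell list was at 90.1 to 172 in IC and 160 to 231 CPM in vehicle libraries, with Ncam1 and Ngfr called lower of 8. The skeletal muscle list was at 14.7 to 30.1 in IC and 26.1 to 65.2 CPM in vehicle libraries, with a median log2 fold change of -1.96 and 3 of 12 genes called lower (Myh1, Actn3 and Myl1). The cartilage and tendon list was at 790 to 885 in IC and 499 to 736 CPM in vehicle libraries, with 1 of 8 genes called higher (Acan). By log2 fold change, 4 of these 8 genes were higher and 4 lower. Comp, the most abundant of them by count, was at 0.39, without overlap between groups (DESeq2 adjusted p of 0.577). The cartilage collagen Col2a1 was at -0.75, also without overlap between groups (DESeq2 adjusted p of 0.107). The macrophage and leukocyte list was at 31.1 to 47.3 in IC and 37.6 to 49.1 CPM in vehicle libraries. Only 4 of its 8 genes were in the table, and Ptprc was not among them. The adipocyte list was at 0.849 to 1.46 in IC and 1.38 to 2.44 CPM in vehicle libraries. Of their defining genes, the pericyte gene Rgs5 was at 227.6 to 1088 normalized counts in IC and 800.1 to 1055 in vehicle libraries, the glial factor Sox10 at 8.269 to 83.75 and 14.76 to 30.4, and the muscle creatine kinase Ckm at 17.92 to 58.4 and 47.56 to 226.7. Without vehicle replicate 1, DESeq2 called 2 of 8 mural-cell, 2 of 8 Schwann-cell, 1 of 12 endothelial and 1 of 12 muscle genes lower. It called 1 of 8 cartilage and tendon genes higher and 0 lower. The part of these cells in the marker values was not tested.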

How the data were processed

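Total RNA was sequenced in 6 libraries, and their titles placed 3 in the IC group and 3 in the vehicle group. The authors deposited raw, unnormalized counts per gene, made by trimming with Trim Galore, quality checks with FastQC, alignment to mm10 with HISAT2 and counting with featureCounts. Versions, the annotation and the use of strand are not given in the sources used here, and the library kit differs between the labels and the study's methods. The 6 per-sample files equalled their columns of the combined table.

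A gene was tested if 3 or more libraries held 10 or more counts, which kept 19925 genes and left out 4423. DESeq2 (version 1.42.0) was run with its Wald test and treatment as the only term, and log2 fold changes were not shrunken. DESeq2 gave no adjusted p to 3870 genes. All genes were fitted together, and 95% intervals are 1.96 standard errors either side. The study's methods mention removal of batch effects by sva but not how many surrogate variables were used, and 1 was tried as an alternative (sva version 3.50.0). The other alternatives were edgeR (version 4.0.16) and limma-voom (version 3.58.1), TMM or total-count scaling, other count filters, a replicate block, each library left out, and the longest transcript as gene length. Tests were tried on simulated counts. Coordinates and lengths came from GENCODE M21 (GRCm38, the assembly that mm10 names), where 23899 symbols matched.

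The markers and the related lists were chosen with earlier results of these data known. The text names all 10 markers, up to 4 called genes per list by adjusted p, and defining genes of each list. In addition, Podxl, Emcn, Thbd, Cd93, Mmrn2, Ggcx, Dpp8, Dpp9, Col1a2, Dpt, Sfrp1, Dact2, Htra4, Comp and Col2a1 were named after their values were seen.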

Additional observations from a re-analysis of the deposited data

How the results depend on the processing

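With 3 libraries a group, the number of markers called was 0 under every alternative but leaving out 1 library, where it ranged from 0 to 5. The number of all genes called was 419, and was 37 with edgeR, 62 with limma-voom and 22 with edgeR and a replicate block; leaving out 1 library gave between 282 and 671. Of the related lists, 21 genes were called, against 1 with edgeR, 3 with limma-voom, 1 with edgeR and a replicate block, and between 11 and 25 with 1 library left out. Same-numbered libraries did not deviate together (correlations of -0.0918, -0.164 and 0.025 over 13435 genes), and a replicate block in DESeq2 gave 320 genes called, 0 of them markers.

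Across 150 alternative fits of single markers, 138 kept their direction and their side of the threshold, 5 passed it (Thy1, Cd34, Cd248, Clec3b and Gas6 without vehicle replicate 1) and 7 turned sign. The reversals were all in genes near 0, and the cause was not tested. Dpp4 was at -0.034 without IC replicate 1 and -0.008 without vehicle replicate 2. Mfap5 was at -0.010 when IC replicate 1 was left out, -0.058 when it was IC replicate 3 and -0.066 when it was vehicle replicate 1. Pi16 was at -0.032 and -0.061 when the last 2 of these were left out. The highest values with 1 library left out were 0.134 for Dpp4, 0.079 for Mfap5 and 0.099 for Pi16. With 1 surrogate variable, which scored 0.9079 in vehicle replicate 2 and between -0.2622 and -0.1294 in the other libraries, the log2 fold change was -0.18 for Thy1, -0.10 for Cd248 and -0.05 for Gas6, and it was larger for Ly6a (0.70) and Ly6c1 (0.40, DESeq2 adjusted p of 0.0665). In the order of levels per kilobase by the mean of all 6 libraries, 4 of 10 markers kept their place with the longest transcript as length, and all 10 with TMM scaling. TMM and total-count scaling moved the median of all genes by -0.0006 and 0.0056 on the log2 scale.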
